A study of Homo sapiens with 75 samples.

Results

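The response to R406 was compared between 2 sets of diffuse large B-cell lymphoma lines on Affymetrix gene expression arrays. One set held HBL1 and U2932, which are commonly classed as the activated B-cell type. The other held DHL4, DHL6 and LY7, which are commonly classed as the germinal centre B-cell type. The quantity of interest was a difference of differences, here called the set difference. It is the mean of R406 minus time-matched DMSO over HBL1 and U2932, minus the same mean over DHL4, DHL6 and LY7, at 6 h and at 24 h. A positive set difference therefore means that R406 arrays stood higher, relative to DMSO, in the activated set than in the germinal centre set. All 60 arrays of the 6 h and 24 h samples entered, out of 75 in the series, with 24 from the activated set and 36 from the germinal centre set. The 15 arrays of DMSO at 0 h were not part of the comparison.

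Each line contributed 4 groups of 3 arrays, R406 and DMSO at 6 h and R406 and DMSO at 24 h, with replicates lettered A, B and C. Every group shared propagation in the medium of its line, and DMSO was the vehicle alone. No dose of R406 is given in the sources used here. Whether the lettered replicates came from separate cultures is not stated in the labels. All p-values therefore measure the spread between these samples alone, and that spread may be technical. The assignment of lines to the classes is background knowledge and is not in the labels. It could not be checked against marker genes, because gene rows carry Ensembl identifiers and the tables used here give no symbol for them. Each class is represented by a few established lines, so a property of a set and a property of its lines cannot be told apart.

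R406 is the active form of the drug fostamatinib and inhibits SYK, a kinase that docks on the phosphorylated tails of the B-cell receptor and passes its signal on to the PI3K, BTK and calcium branches. Lines of the activated class often depend on receptor signalling that feeds the NF-kB pathway. Lines of the germinal centre class more often show a low, antigen-independent receptor signal that acts through PI3K.

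The 60 arrays agreed closely within groups. Correlations over the 11731 genes tested lay between 0.991 and 0.998 within a group, and no correlation between lines exceeded 0.91. All 60 arrays correlated best with an array of their own group, and no 2 arrays were identical. The residual SD had a median of 0.0915 over genes (log2). DMSO replicate A of U2932 at 6 h stood apart, with a residual SD of 0.163 against 0.119 for the next array. Results that moved without this array are given with and without it.

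The R406 response differed between the sets for a large part of the transcriptome, and most differences were small. At 6 h the set difference passed an adjusted p of 0.05 (limma, Benjamini-Hochberg) for 5172 of 11731 genes, or 44.1%. Of these, 2816 were positive and 2356 negative, shares of 24.0% and 20.1% of the genes tested. At 24 h it passed for 6958 genes, or 59.3%, with 4229 positive (36.0%) and 2729 negative (23.3%). The median size among the called genes was 0.293 at 6 h and 0.331 at 24 h on the log2 scale, with a median standard error of 0.0676 at both times. A set difference of 1 or more on the log2 scale, which is 2-fold, was reached by 149 called genes at 6 h (1.27%) and by 265 at 24 h (2.26%). In these large differences the negative sign prevailed, with 109 negative and 40 positive at 6 h, and 171 negative and 94 positive at 24 h. As the samples are bulk RNA, fewer cells of a type and less RNA per cell cannot be told apart.

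The tests above treat the arrays as replicates and describe these 5 lines. With the 5 lines as replicates, 2 against 3, limma called 0 genes at either time. An unadjusted p under 0.05 was found for 1583 of the 11731 genes at 6 h and 1117 at 24 h. If no gene differed, a share of 0.05 of the genes tested would still be expected to reach it. The balance of signs also depended on the scaling. The positive share of the called genes was 54.4% at 6 h and 60.8% at 24 h. It was 42.5% and 52.3% with cyclic loess, and 55.1% and 68.5% with the median of each array subtracted.

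**Figure D1:**
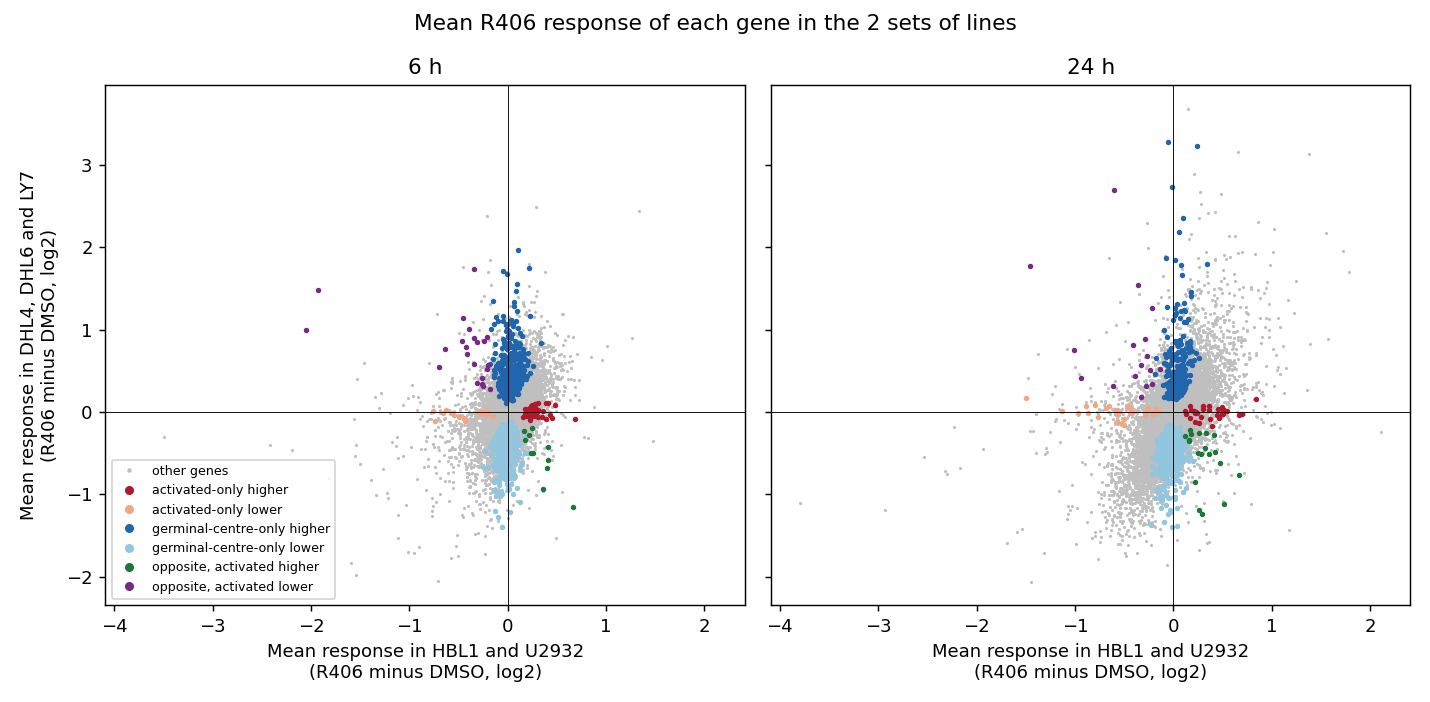
Mean R406 response of each of the 11731 genes tested, at 6 h (left) and 24 h (right). The x axis gives the mean of R406 minus DMSO over HBL1 and U2932 and the y axis the same over DHL4, DHL6 and LY7, both in log2 units. Each point is a gene. Coloured points are genes called in every line of one set and in no line of the other, or called with opposite signs in the sets, and grey points are all other genes. More genes had a called mean response of 2-fold or more on the y axis (150 at 6 h, 492 at 24 h) than on the x axis (39 and 71). The lowest single genes lie on the x axis, at -3.5 and -3.8, against -2.05 and -2.06 on the y axis.

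Most of the set differences arose where the germinal centre lines moved more. The germinal centre mean was also called more often over all genes tested. It was called for 61.4% of them at 6 h and 75.6% at 24 h, against 31.8% and 48.9% for the activated mean. At 6 h, 541 of the called genes (10.5%) had a mean response that was itself called in the activated set only, against 2866 (55.4%) called in the germinal centre set only. Responses of one sign, called in both sets, were larger in the activated set for 152 genes (2.94%) and larger in the germinal centre set for 942 (18.2%). Opposite signs, both called, were found for 558 genes (10.8%), and 113 genes (2.18%) had a called set difference with neither mean called. The split at 24 h was 610 genes (8.77%) called in the activated mean only, against 2824 (40.6%) called in the germinal centre mean only. One sign in both sets with the larger response in the activated set was found for 277 genes (3.98%), and with the larger one in the germinal centre set for 2392 (34.4%). Opposite signs were found for 740 genes (10.6%). The activated mean rests on 12 arrays at a time and the germinal centre mean on 18, and their median standard errors were 0.0523 and 0.0427 on the log2 scale.

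Among the 2-fold set differences, opposite signs took a larger share than among all called genes. Part of this is built in, since responses of opposite sign add up in the set difference and responses of one sign cancel. Opposite signs accounted for 54 of the 149 genes at 6 h (36.2%) and for 77 of the 265 at 24 h (29.1%). Genes called in the activated mean only accounted for 4 (2.68%) and 10 (3.77%), and genes called in the germinal centre mean only for 59 (39.6%) and 75 (28.3%).

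A stricter rule asked for the same behaviour in each line. A gene was taken as activated-only if R406 differed from DMSO at an adjusted p under 0.05 with one sign in HBL1 and in U2932, in none of DHL4, DHL6 and LY7, and if its set difference was called too. Germinal-centre-only is the mirror image. A gene was taken as opposite if all 5 lines were called, with one sign in both activated lines and the other sign in all 3 germinal centre lines. "Only" refers to these calls, since a p above the threshold does not show that a line did not respond.

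Germinal-centre-only genes formed by far the most numerous class at both times. This order did not hold at 6 h with measures of RNA quality as covariates, where 111 genes were activated-only and 86 germinal-centre-only. The activated-only class held 43 higher (0.367% of all genes tested) and 17 lower genes (0.145%) at 6 h, 60 in all (0.511%). It held 31 higher (0.264%) and 28 lower (0.239%) at 24 h, 59 in all (0.503%). The germinal-centre-only class held 381 higher (3.25%) and 520 lower genes (4.43%) at 6 h, 901 in all (7.68%), and 246 higher (2.10%) and 461 lower (3.93%) at 24 h, 707 in all (6.03%). The balance of higher and lower genes depended on the scaling. With cyclic loess the germinal-centre-only class held 518 higher and 367 lower genes at 6 h and 323 higher and 334 lower at 24 h, and the activated-only class held 23 higher and 22 lower at 6 h. Opposite genes numbered 11 with the activated lines higher (0.0938%) and 22 with the activated lines lower (0.188%) at 6 h, 33 in all (0.281%). The corresponding numbers at 24 h were 19 (0.162%), 17 (0.145%) and 36 (0.307%). With cyclic loess 6 opposite genes had the activated lines higher at 6 h and 25 had them lower. The sizes of the one-set-only classes are not directly comparable, because one needs 2 lines to be called and 3 not to be, and the other the reverse. Lines also differed in the share of genes called. At 6 h it was 22.0% in HBL1, 28.1% in U2932, 52.0% in DHL4, 39.6% in DHL6 and 47.8% in LY7, and at 24 h 43.4%, 36.2%, 69.5%, 60.9% and 59.4%. Without the U2932 array that stood apart, DMSO replicate A at 6 h, the activated-only higher genes at 6 h numbered 28 in place of 43, and the opposite genes with the activated lines higher numbered 7 in place of 11.

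**Figure D2:**
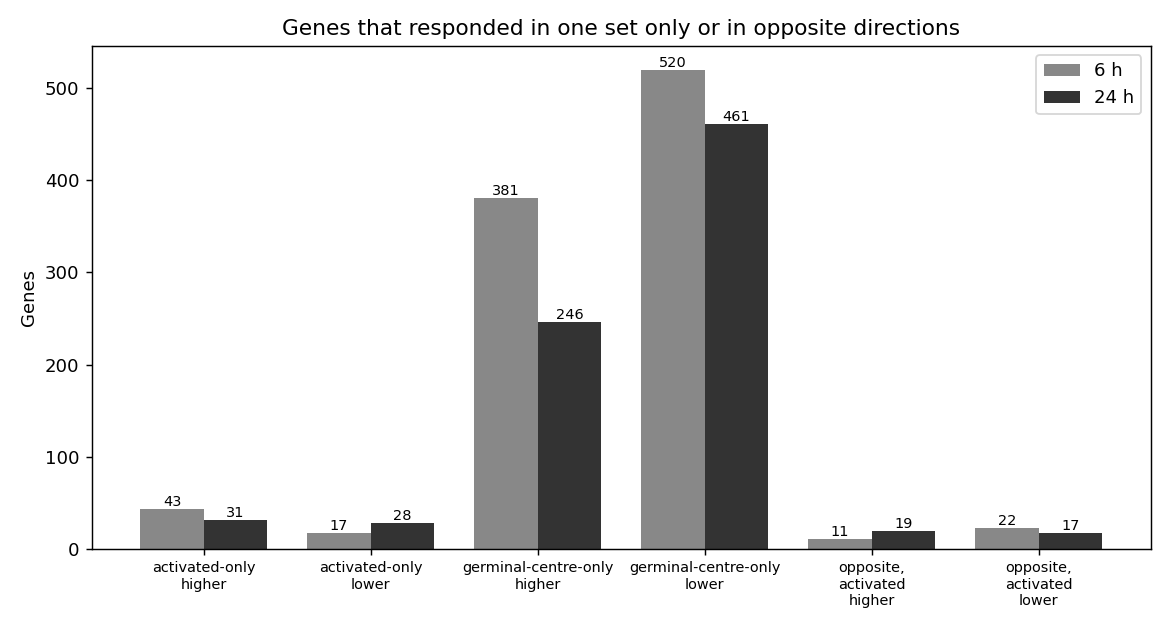
Number of genes in each class at 6 h (grey) and 24 h (black). The y axis counts genes out of 11731 tested, and classes run along the x axis, the activated-only classes first. Germinal-centre-only genes reach 520 lower genes at 6 h, while no activated-only or opposite class exceeds 43.

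Counted without regard to the set difference, 568 genes (4.84%) were higher and 382 (3.26%) lower in both activated lines at 6 h, and 917 (7.82%) and 1252 (10.7%) at 24 h. In all 3 germinal centre lines, 1186 genes (10.1%) were higher and another 1186 (10.1%) lower at 6 h, and 1149 (9.79%) and 2224 (19.0%) at 24 h. Genes higher in all 5 lines at 6 h numbered 258, which is 45.4% of the activated list and 21.8% of the germinal centre list. Those lower in all 5 numbered 153, or 40.1% and 12.9%. The corresponding numbers at 24 h were 362 higher (39.5% and 31.5%) and 856 lower (68.4% and 38.5%). The lists differ in length, so the shares of the shorter list are the larger ones.

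Single activated lines often joined the germinal centre lines. HBL1 was called with the same sign for 33.1% and U2932 for 46.9% of the genes higher in all 3 germinal centre lines at 6 h, beside 11.0% and 17.7% of all genes tested that were higher in these lines. They joined for 29.6% and 30.5% of the lower genes at 6 h, beside 11.0% and 10.4% of all genes. For the higher genes at 24 h the shares were 56.7% and 46.1%, beside 21.3% and 16.0% of all genes, and for the lower genes 58.2% and 54.2%, beside 22.1% and 20.2%. The shares thus lay above those of all genes in both lines, at both times and in both directions.

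The expression level bears on what a missing call can mean. A gene was counted as measurable in a line if its R406 or DMSO mean at that time exceeded 5.89, the median value of the table. Of all genes tested, 8648 (73.7%) were measurable in all 5 lines at 6 h and 8748 (74.6%) at 24 h. Of the activated-only genes at 6 h, 38 of the 43 higher and 9 of the 17 lower genes were measurable in all 5 lines. At 24 h, 14 of the 31 higher and 9 of the 28 lower genes were. In 18 of those 28 lower genes all 3 germinal centre lines lay below the level, and in 9 of the 31 higher genes. The median response of the lower genes at 24 h was -0.55 in HBL1 and -0.43 in U2932, and of the higher genes 0.34 and 0.33. The largest absolute change in an uncalled germinal centre line had a median of 0.14 and 0.13 in these classes. Among the 28 lower genes, 24 (85.7%) had a higher mean level in the activated set than in the germinal centre set at 0 h, beside 45.9% of all genes tested. The median difference in these 28 genes was 1.19 on the log2 scale. Genes below the level in all 3 germinal centre lines can enter the test through the activated lines alone, so part of this difference is built in.

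Germinal-centre-only higher genes were measurable in all 5 lines about as often as all genes tested, and the lower genes more often. At 6 h, 294 of the 381 higher and 497 of the 520 lower genes were measurable in all 5 lines, beside 73.7% of all genes. The numbers at 24 h were 187 of 246 and 411 of 461, beside 74.6%. In 40 of the higher and 10 of the lower genes at 6 h both activated lines lay below the level, and at 24 h in 41 and 16.

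In the germinal-centre-only genes the size of the response was graded across the 3 lines. The median responses of the higher genes at 6 h were 0.04 in HBL1 and 0.05 in U2932, against 0.50 in DHL4, 0.34 in DHL6 and 0.41 in LY7 (log2). For the lower genes they were -0.03 in each activated line, against -0.50, -0.30 and -0.34 in the germinal centre lines. Medians at 24 h were 0.05 and 0.06 against 0.45, 0.33 and 0.43 for the higher genes, and -0.03 and -0.06 against -0.59, -0.40 and -0.37 for the lower genes, in the same order of lines. DHL4 had the highest median size in all 4 classes. These medians describe genes chosen by the calls of the same lines and are no test. The largest absolute change in an uncalled activated line had a median of 0.11 or less in these classes, and its highest value over all of them was 0.55.

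The opposite genes had the largest median set differences of the classes, which their definition favours, since responses of opposite sign add up in the set difference. The medians were 0.75 where the activated lines were higher and -1.15 where they were lower at 6 h, and 0.75 and -0.95 at 24 h. Where the activated lines were lower, the median response at 6 h was -0.33 in HBL1 and -0.28 in U2932, against 1.00 in DHL4, 0.37 in DHL6 and 0.57 in LY7. Set differences in this class reached -3.42 at 6 h and -3.31 at 24 h. Of its genes, 14 of 22 at 6 h and 8 of 17 at 24 h exceeded 2-fold. Measurable in all 5 lines were 18 of the 22 and 13 of the 17, and, where the activated lines were higher, 10 of 11 at 6 h and 15 of 19 at 24 h.

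Membership of a class rarely held at both times. The sign and call of the set difference held for more genes, by a share that varied with the class. The genes in the same class at 6 h and 24 h were 41 germinal-centre-only higher, 34 germinal-centre-only lower, 4 activated-only lower, 2 opposite with the activated lines higher and 5 opposite with the activated lines lower. No gene was activated-only higher at both times. Over all genes tested, 36.0% had a called positive and 23.3% a called negative set difference at 24 h. Of the 520 germinal-centre-only lower genes at 6 h, 466 had a called positive set difference at 24 h too, and 2 a called negative one. For the 381 higher genes, 257 kept a called negative set difference and 28 had a called positive one. Of the 22 opposite genes with the activated lines lower, 21 kept the sign and the call, and of the 11 with the activated lines higher, 10 did. Of the activated-only genes at 6 h, 33 of the 43 higher and 9 of the 17 lower did, while 1 and 2 were called with the other sign. Taken from 24 h, fewer of the one-set-only genes had a called set difference of the same sign at 6 h. They were 8 of the 31 activated-only higher genes, with 3 called the other way, and 17 of the 28 lower, with another 3 called the other way. Over all genes tested, 24.0% had a called positive and 20.1% a called negative set difference at 6 h. The 8 of 31 thus lay near the share of all genes. In the germinal-centre-only class, 139 of 246 higher and 253 of 461 lower genes had the same sign and call at 6 h, with 3 and 7 called the other way. Of the opposite genes at 24 h, 17 of 19 with the activated lines higher and 16 of 17 with them lower had the same sign and call at 6 h. Both times share no arrays. Among all genes, 3903 were called at both times, which is 75.5% of those called at 6 h and 56.1% of those called at 24 h. The sign was the same in 3562 and turned in 341, of which 253 were negative at 6 h and positive at 24 h and 88 the reverse.

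The set difference itself moved between the times for 4130 genes, or 35.2%, of which 2699 were more positive at 24 h and 1431 more negative. A change of 2-fold or more was found for 90 of them. With the 5 lines as replicates limma called 1 gene, and 810 of the 11731 tested had an unadjusted p under 0.05. A share of 0.05 would be expected there if no gene differed.

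No gene names could be given, and 4 genes are described by identifier to show the array values behind the classes. They were chosen after the class counts were known, among genes in the same class at both times and measurable in all 5 lines at both. For each sign, the gene with the largest mean set difference over both times was taken among the opposite genes and among the one-set-only genes that met this. Their calls and set differences were thus part of the choice. Among the opposite genes with the activated lines higher, 1 gene met the conditions, so its size was not weighed against others. Its class still required called responses with opposite signs in the sets and a called set difference at both times. For all 4 genes, the directions of the called lines and the passing of the set difference follow from the choice. Lack of overlap between the conditions in called lines is favoured by it. Their p-values are therefore descriptions and no further test.

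ENSG00000111732 had the most negative set difference of the opposite genes at 6 h, while another opposite gene reached -3.31 at 24 h, beyond its own value of -3.24. At 6 h its log2 values with R406 were 8.05, 8.02 and 8.01 in HBL1, against 9.55, 9.55 and 9.51 with DMSO. In U2932 they were 7.86, 7.89 and 7.90 with R406, against 10.28, 10.25 and 10.18 with DMSO. Both activated lines fell, with no overlap between the conditions. In DHL4 the values were 11.98, 11.92 and 11.93 with R406, against 8.91, 9.03 and 9.06 with DMSO. In DHL6 they were 9.22, 9.19 and 9.15 with R406, against 8.79, 8.83 and 8.87 with DMSO. In LY7 they were 6.77, 6.87 and 6.95 with R406, against 5.77, 5.79 and 5.57 with DMSO. All 3 germinal centre lines rose, again without overlap, and DHL4 rose most, by 2.94 ± 0.05 (log2, SE) or 7.70-fold.

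ENSG00000111732 had the same split at 24 h, which its choice required. The R406 values were 8.63, 8.62 and 8.65 in HBL1, against 9.85, 9.85 and 9.83 with DMSO, and 8.40, 8.45 and 8.41 in U2932, against 10.10, 10.17 and 10.13 with DMSO. In DHL4 the gene reached 13.15, 13.05 and 13.14 with R406, against 9.19, 9.15 and 9.20 with DMSO. The difference in DHL4 was 3.93 ± 0.05, or 15.3-fold. In DHL6 the values were 9.51, 9.51 and 9.47 with R406, against 8.72, 8.64 and 8.71 with DMSO, and in LY7 6.10, 5.97 and 6.08 with R406, against 5.49, 5.37 and 5.51 with DMSO. The DMSO values of LY7 thus lay below 5.89, the level used to call a gene measurable, at both times. The set difference was -3.42 ± 0.04 at 6 h and -3.24 ± 0.04 at 24 h (limma adjusted p = 1.74e-45 and 1.78e-44), and it moved by 0.18 ± 0.06 between the times (adjusted p = 0.0171). Without DHL4 it was -2.69 at 6 h and -2.16 at 24 h, still called. With the 5 lines as replicates the adjusted p was 0.263 at 6 h and 0.487 at 24 h.

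ENSG00000127663 was the 1 opposite gene with the activated lines higher that was in its class and measurable in all 5 lines at both times. Its set differences lay below the class median of 0.75 at either time. At 6 h it had 7.71, 7.60 and 7.74 with R406 in HBL1, against 7.42, 7.41 and 7.33 with DMSO. U2932 had 8.57, 8.68 and 8.49 with R406, against 8.41, 8.43 and 8.36 with DMSO. Both lines rose without overlap between the conditions. In DHL4 it had 7.90, 7.93 and 7.86 with R406, against 8.51, 8.55 and 8.54 with DMSO. DHL6 had 7.76, 7.85 and 7.74 with R406, against 8.27, 8.14 and 8.14 with DMSO, and LY7 7.89, 7.84 and 7.89 with R406, against 8.34, 8.31 and 8.30 with DMSO. All 3 fell without overlap. The responses in the order HBL1, U2932, DHL4, DHL6 and LY7 were 0.30, 0.18, -0.64, -0.40 and -0.45, each with an SE of 0.05.

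ENSG00000127663 had this split at 24 h too, which its choice required. HBL1 had 7.95, 7.91 and 7.98 with R406, against 7.28, 7.27 and 7.37 with DMSO, and U2932 8.58, 8.56 and 8.58 with R406, against 8.37, 8.31 and 8.49 with DMSO. DHL4 had 8.23, 8.08 and 8.18 with R406, against 8.38, 8.45 and 8.43 with DMSO. DHL6 had 7.73, 7.83 and 7.86 with R406, against 8.06, 8.10 and 8.16 with DMSO, and LY7 8.37, 8.25 and 8.19 with R406, against 8.50, 8.59 and 8.58 with DMSO. The conditions did not overlap in any line. The responses were 0.64, 0.18, -0.26, -0.30 and -0.29 in the same order of lines. The set difference was 0.73 ± 0.05 at 6 h and 0.69 ± 0.05 at 24 h (limma adjusted p = 4.55e-18 and 1.85e-17). The change between the times was -0.04 ± 0.06 and did not pass the test (adjusted p = 0.642). Without HBL1 the set difference at 24 h was 0.46, still called, and with the lines as replicates the adjusted p was 0.239 at 6 h and 0.487 at 24 h.

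ENSG00000092820 was the germinal-centre-only higher gene with the largest mean set difference over both times among those considered. At 6 h the values in HBL1 were 9.72, 9.61 and 9.66 with R406 and 9.87, 9.77 and 10.04 with DMSO. In U2932 they were 10.18, 10.23 and 10.15 with R406 and 10.14, 10.43 and 10.34 with DMSO. The R406 arrays lay below the DMSO arrays in HBL1 and within their range in U2932. In DHL4 the values were 11.03, 11.24 and 10.88 with R406, against 9.88, 9.80 and 9.89 with DMSO. DHL6 had 12.17, 12.15 and 12.24 with R406, against 11.39, 11.12 and 11.37 with DMSO, and LY7 11.42, 11.44 and 11.54 with R406, against 10.60, 10.49 and 10.49 with DMSO. These 3 lines rose without overlap between the conditions. HBL1 missed the threshold by little, with a response of -0.23 ± 0.09 (limma adjusted p = 0.0519), and the mean of both activated lines passed at -0.17 ± 0.06 (adjusted p = 0.0255).

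At 24 h HBL1 had 9.82, 9.59 and 9.63 for ENSG00000092820 with R406 and 9.65, 9.82 and 9.88 with DMSO, and U2932 had 10.29, 10.34 and 10.46 with R406 and 10.41, 10.42 and 10.35 with DMSO. The conditions overlapped in both activated lines. DHL4 had 11.59, 11.67 and 11.71 with R406, against 9.57, 9.79 and 9.66 with DMSO. DHL6 had 12.42, 12.13 and 12.45 with R406, against 11.31, 11.23 and 11.07 with DMSO, and LY7 11.19, 11.20 and 11.29 with R406, against 10.40, 10.65 and 10.48 with DMSO. These 3 lines again rose without overlap. The responses in the order HBL1, U2932, DHL4, DHL6 and LY7 came to -0.10, -0.03, 1.98, 1.13 and 0.71, each with an SE of 0.09. The set difference was -1.18 ± 0.08 at 6 h and -1.34 ± 0.08 at 24 h (limma adjusted p = 4.10e-17 and 3.55e-19), and its change between the times did not pass (adjusted p = 0.290). With the lines as replicates the adjusted p was 0.165 and 0.487.

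ENSG00000151304 was the germinal-centre-only lower gene with the largest mean set difference over both times among those considered. At 6 h HBL1 had 8.36, 8.33 and 8.31 with R406 and 8.42, 8.55 and 8.35 with DMSO, and U2932 7.29, 7.44 and 7.43 with R406 and 7.14, 7.29 and 7.23 with DMSO. The conditions overlapped in HBL1 and touched in U2932. In DHL4 the values were 6.62, 6.72 and 7.04 with R406, against 7.79, 7.92 and 7.74 with DMSO. DHL6 had 7.07, 7.03 and 6.97 with R406, against 7.25, 7.63 and 7.73 with DMSO, and LY7 7.35, 7.33 and 7.33 with R406, against 7.99, 8.06 and 7.99 with DMSO. These 3 lines fell without overlap.

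The set difference of ENSG00000151304 was larger at 24 h. HBL1 had 7.89, 7.85 and 7.81 with R406, against 8.15, 8.02 and 7.93 with DMSO, and U2932 6.92, 6.95 and 6.90 with R406, against 7.24, 7.18 and 7.16 with DMSO. The conditions did not overlap in either line. DHL4 had 5.27, 5.68 and 5.81 with R406, against 7.71, 7.49 and 7.61 with DMSO. DHL6 had 6.19, 6.57 and 5.91 with R406, against 7.39, 7.72 and 7.64 with DMSO, and LY7 6.91, 7.01 and 6.87 with R406, against 7.71, 7.66 and 7.62 with DMSO. The germinal centre lines fell without overlap and by more than the activated lines differed. The responses in HBL1 and U2932 were -0.19 and -0.27 and did not pass singly (limma adjusted p = 0.186 and 0.0558), while their mean did at -0.23 ± 0.08 (adjusted p = 0.0150). In DHL4, DHL6 and LY7 they were -2.01, -1.36 and -0.73, each response with an SE of 0.11. The set difference was 0.77 ± 0.10 at 6 h and 1.14 ± 0.10 at 24 h (adjusted p = 2.47e-08 and 4.02e-13), and it moved by 0.37 ± 0.15 (adjusted p = 0.0425). With the lines as replicates the adjusted p was 0.283 and 0.487.

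**Figure D3:**
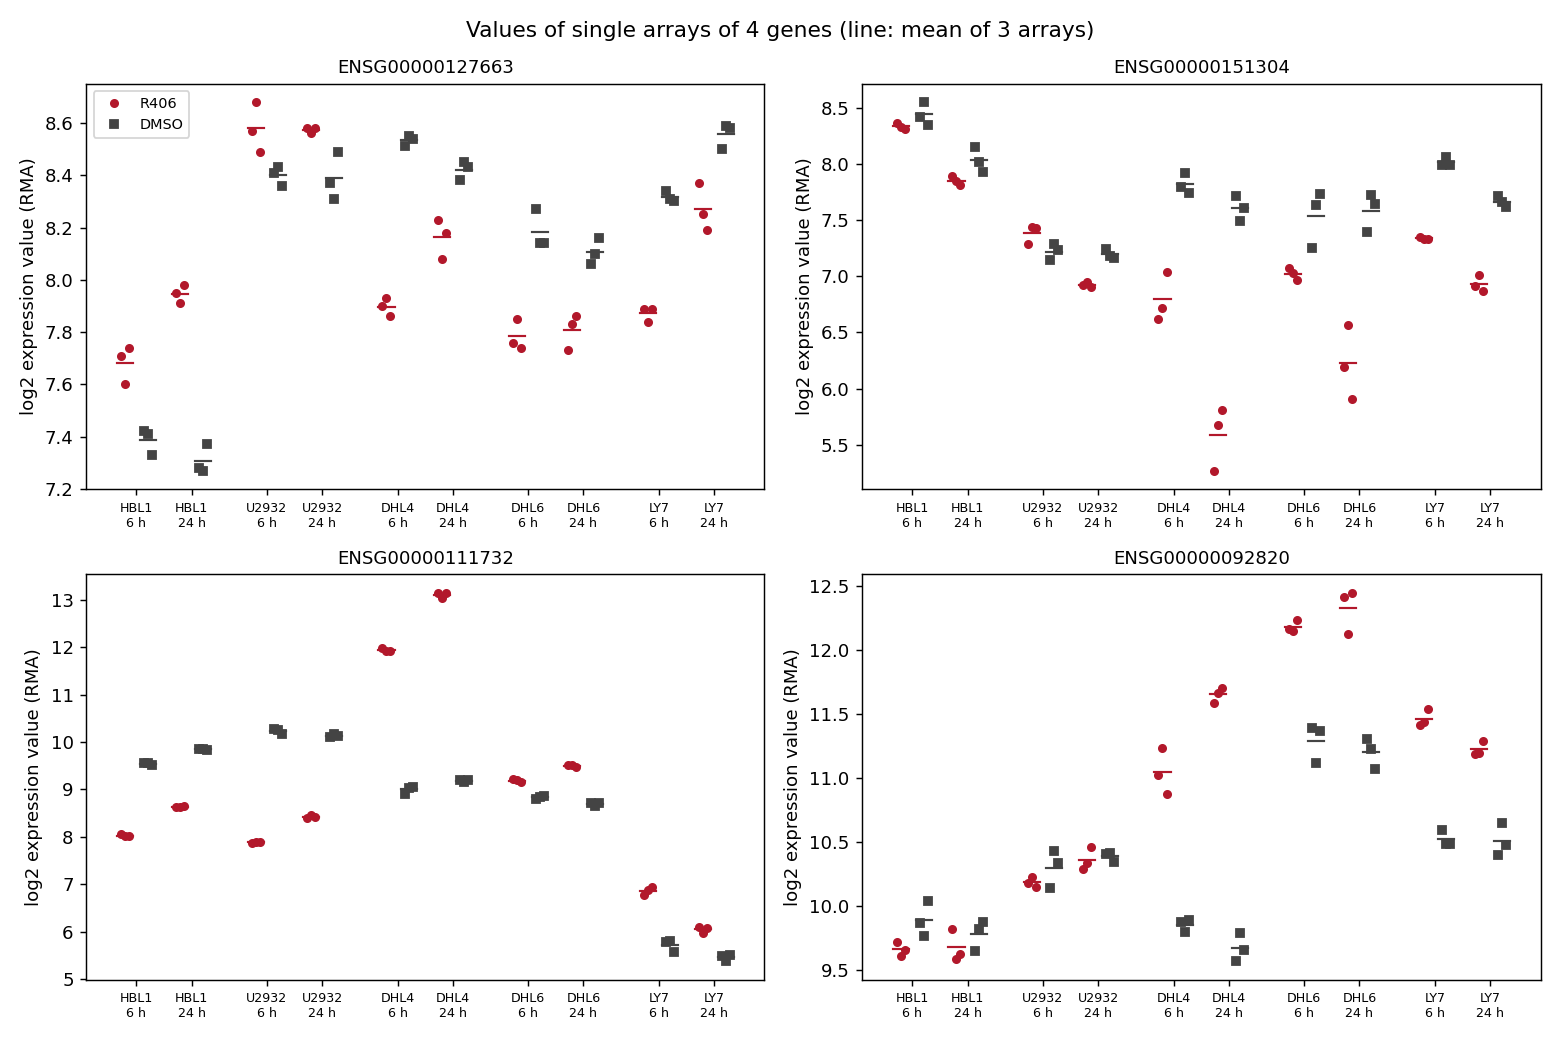
Values of single arrays of 4 genes, with a panel for each gene. The y axis gives the deposited log2 expression value and the x axis each line at 6 h and 24 h, with HBL1 and U2932 left of DHL4, DHL6 and LY7. Red circles are R406, grey squares DMSO, and short lines the mean of 3 arrays. In ENSG00000111732 the R406 arrays lie below DMSO in both activated lines and above it in the other 3, up to 13.15 in DHL4 at 24 h.

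For many genes the lines of one set lay wholly to one side of the other set. At 6 h, 1876 called genes had a response in each activated line above that of every germinal centre line, and 1375 below it. These 3251 genes are 27.7% of all genes tested and 62.9% of the called ones. The numbers at 24 h were 2152 and 1295, or 29.4% of all tested and 49.5% of the called genes. Without asking for a call, 2356 of the 11731 genes tested lay above and 1637 below at 6 h, and 2252 and 1492 at 24 h. Such an order alone needs no size, so a gap of at least 0.5 (log2) between the nearest lines of the sets was also asked for. It was reached by 45 genes above and 86 below at 6 h, and by 88 above and 107 below at 24 h. Of the 2-fold called genes, 128 of 149 at 6 h and 206 of 265 at 24 h had the lines of the sets apart in this way, without a demand on the gap. A 2-fold difference of the means itself favours such an order.

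Genes with a large set difference often already differed in level between the sets at 0 h, in arrays that did not enter the set difference. Part of this is built in, since a gene expressed in a single set passes the filter through that set and can respond there alone. The shares below were not limited to genes measurable in all 5 lines. Over all genes tested, 5.68% had a 2-fold or higher level in the activated set at 0 h and 4.24% a 2-fold or more lower one. Among genes with a set difference of 1 or more, 5.00% were higher and 35.0% lower at 6 h (40 genes), and 4.26% higher and 40.4% lower at 24 h (94 genes). Among genes with a set difference of -1 or less, 28.4% were higher and 22.0% lower at 6 h (109 genes), and 32.2% higher and 13.5% lower at 24 h (171 genes). Over all genes the level difference at 0 h and the set difference were nearly unrelated, with Pearson's r of -0.0681 at 6 h and -0.126 at 24 h. These shares are descriptions, since the genes are not independent of one another.

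**Figure D4:**
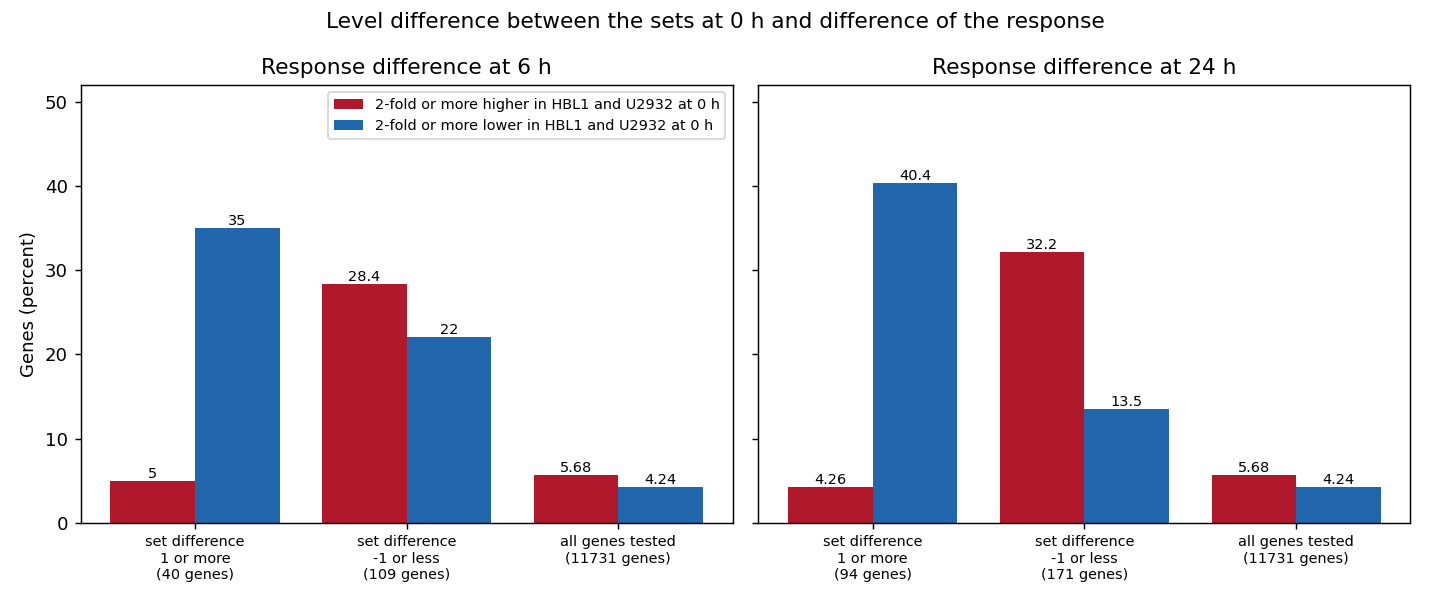
Share of genes with a 2-fold or larger level difference between the sets at 0 h, in percent, by set difference of the R406 response at 6 h (left) and 24 h (right). Red bars give genes higher in HBL1 and U2932 at 0 h and blue bars genes lower there, and the x axis names the set difference and the number of genes. Of the 94 genes with a set difference of 1 or more at 24 h, 40.4% were lower in the activated set at 0 h, beside 4.24% of all genes tested.

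Control probe sets name a few transcripts on this array, and their p-values were adjusted over 17 control measures and 12 comparisons. Beta-actin, the cytoskeletal protein gene used as a loading control, had a positive set difference at 24 h in all 3 of its probe sets, 0.28 ± 0.03 at the 3-prime end, 0.48 ± 0.06 in the middle and 0.48 ± 0.10 at the 5-prime end (limma adjusted p = 6.08e-10, 1.72e-08 and 9.04e-05). With cyclic loess they were 0.10, 0.30 and 0.30 in the same order, smaller but still called. All 3 probe sets fell in DHL6 and LY7 at 24 h. For the middle probe set, DHL6 had 12.10, 12.08 and 12.29 with R406, against 12.98, 12.84 and 12.88 with DMSO at 24 h. LY7 had 12.16, 12.08 and 12.22 with R406, against 12.96, 13.03 and 13.05 with DMSO. DHL4, the third germinal centre line, had a response of -0.14 ± 0.07 in this probe set that did not pass (limma adjusted p = 0.10). The 5-prime probe set fell in DHL4 too, by 0.30 ± 0.11, and in the activated line U2932, by 0.32 ± 0.11 (limma adjusted p = 0.0252 and 0.0168). At 6 h no beta-actin probe set had a called set difference, though single lines of both sets responded. The middle probe set changed by -0.47 in U2932, -0.43 in LY7 and -0.28 in DHL6, which passed. Its changes of -0.09 in HBL1 and -0.10 in DHL4 did not. GAPDH, an enzyme of glycolysis, had set differences of 0.16 to 0.17 in its 3 probe sets at 24 h. In the GAPDH middle probe set this depended on the scaling, being -0.01 with cyclic loess.

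Measures linked to RNA quality and labelling moved with the treatment as well, and not alike in the lines. The 28S ribosomal RNA, read at its 5-prime end, changed by 0.19 in HBL1, 0.35 in U2932, 0.37 in DHL4, 0.74 in DHL6 and -1.12 in LY7 at 6 h, and by 0.65, 1.91, 0.93, 1.79 and -1.54 at 24 h. Its set difference of 0.27 ± 0.05 at 6 h and 0.89 ± 0.05 at 24 h rested on LY7, and without that line it was -0.29 and -0.08. The excess of the beta-actin 3-prime over its 5-prime probe set, which grows as RNA degrades, had set differences of -0.12 ± 0.10 and -0.20 ± 0.10 that did not pass (limma adjusted p = 0.372 and 0.116). By line, R406 raised it at 6 h in LY7, by 0.39 ± 0.12 (limma adjusted p = 0.00383). At 24 h it changed by 0.10 in HBL1 and 0.27 in U2932, which did not pass, against 0.29 in DHL4, 0.45 in DHL6 and 0.42 in LY7, which did (limma adjusted p = 0.563, 0.0569, 0.0369, 0.000952 and 0.00222, in the same order). These 3 lines are also those whose calls define the germinal-centre-only class. U2932, with nearly the same change as DHL4, fell short of the threshold. The same excess for GAPDH was called in no line at either time. Its set differences were 0.03 ± 0.03 at 6 h and 0 ± 0.03 at 24 h (limma adjusted p = 0.345 and 0.914).

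With both measures as covariates, the set difference was called for 4579 genes at 6 h and 3584 at 24 h, against 5172 and 6958 without them. The activated-only, germinal-centre-only and opposite classes then held 111, 86 and 9 genes at 6 h, and 41, 54 and 0 at 24 h. The median standard error of the response of a line was 0.125 at 6 h and 0.271 at 24 h in that fit, against 0.074 without the covariates. At an unadjusted p under 0.05, 18 genes at 6 h and 2 at 24 h were opposite, against 47 and 49 without the covariates. The set differences of the 4 genes described above were called in that fit at both times, at 0.67 and 0.51 for ENSG00000127663, 1.00 and 1.86 for ENSG00000151304, -3.40 and -3.19 for ENSG00000111732 and -1.32 and -1.75 for ENSG00000092820. The part of RNA quality in the class counts was not tested beyond this fit.

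**Figure D5:**
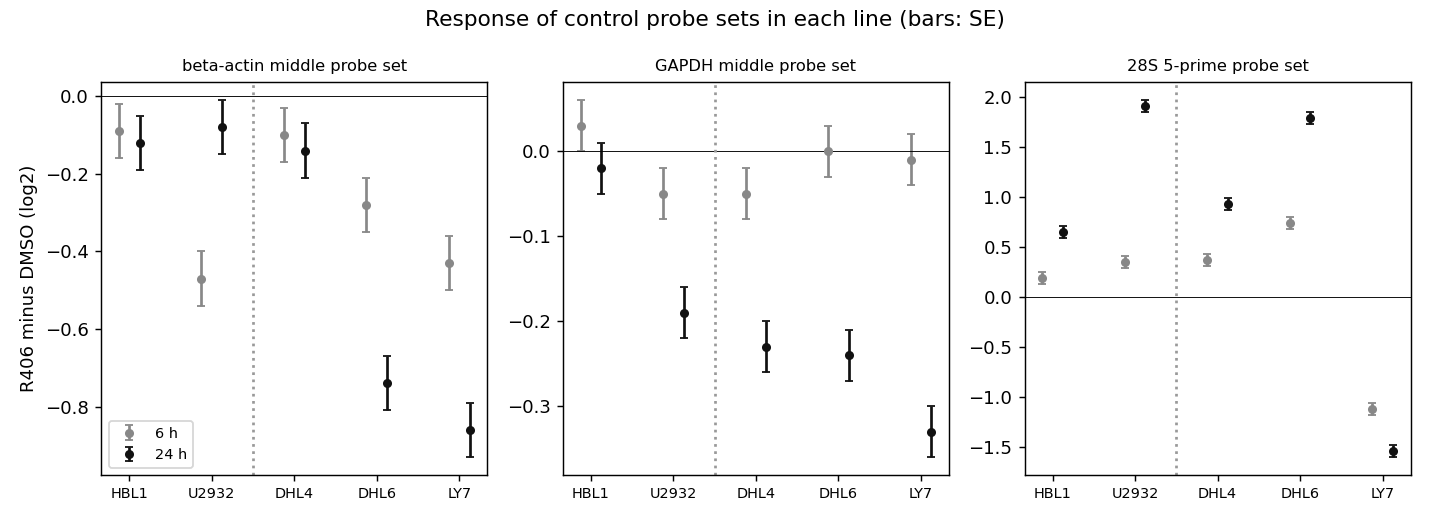
R406 minus DMSO (log2) of 3 control probe sets in each line, at 6 h (grey) and 24 h (black). Points are estimates from 3 arrays in each condition and bars their standard errors, and a dotted line parts HBL1 and U2932 from DHL4, DHL6 and LY7. The beta-actin probe set is lowest in DHL6 and LY7 at 24 h, and the 28S probe set is negative in LY7 alone, at -1.12 and -1.54.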

How the data were processed

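The samples were total RNA of 5 lymphoma lines hybridised to Affymetrix HT HG-U133 Plus arrays. Values in the deposited table are on the log2 scale and were produced by the authors with RMA, as the submitters' processing notes state, with no version given in the sources used here. RMA equalises the distributions of arrays, so a shift of most transcripts one way is not visible. Of 19598 rows, 19536 carry an Ensembl gene identifier and 62 are control probe sets. Control tests were added with their values known and use the variance prior of the gene fit, and 1 control transcript is not reported here.

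A gene was tested if its highest mean among the 20 groups exceeded 5.89, the median of all values, which left 11731 and removed 7805. One mean per group was fitted to the 60 arrays with limma 3.58.1 in R 4.3.3, with 40 residual degrees of freedom, eBayes, two-sided tests and Benjamini-Hochberg adjustment within each contrast. The fit was tested on simulated data. The number of arrays limits the precision.

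Of 59792 rows in the RefSeq gene table, 0 carry an Ensembl identifier. The 31 gene lists, the marker check and the rule for named genes, which took the largest set differences by class and list, were therefore not analysed here, and no sequence is printed. In place of that rule 4 identifiers are given. The comparison, lists and classes were chosen with earlier results of these data known. The letters of replicates did not pair arrays: R406 and DMSO arrays of one letter had deviations correlated from -0.273 to 0.244, with 6 of 30 pairs over 0.1. Alternatives covered scaling, filter, variance model, array weights, replicate block, arrays in the fit, covariates, thresholds, lines as replicates, and each array or line left out.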

Additional observations from a re-analysis of the deposited data

Results flagged for a closer look

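The set difference is itself a test of whether the R406 response differs between the lines of one set and those of the other. Arrays are the replicates in this test, so it describes these lines and not the sets beyond them. It passed for 5172 genes at 6 h and 6958 at 24 h, and its change between the times passed for 4130 genes. All 4 genes described by identifier passed at both times, which the rule that chose them required. ENSG00000127663 had 0.73 at 6 h and 0.69 at 24 h, and ENSG00000151304 had 0.77 and 1.14, with a change of 0.37 between the times. ENSG00000111732 had -3.42 and -3.24, with a change of 0.18, and ENSG00000092820 had -1.18 and -1.34.

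Control measures differed between the lines of the sets by the same test, with arrays as replicates. At 24 h beta-actin had 0.28 at the 3-prime end, 0.48 at the 5-prime end and 0.48 in the middle, and GAPDH had 0.17, 0.17 and 0.16. The 3 probe sets of 18S ribosomal RNA had 0.31 (3-prime), 0.25 (5-prime) and 0.37 (middle) at 24 h. The 28S ribosomal RNA had 0.27 at 6 h and 0.89 at 24 h at the 5-prime end, and 0.25 and 0.41 in the middle, while its 3-prime probe set had -0.08 and -0.06 and did not pass. The mean of the hybridisation controls, which are added to each sample before hybridisation, had -0.28 at 24 h. The mean of the poly-A spike RNAs had -0.30 at 6 h.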

How the results depend on the processing

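With cyclic loess, medians subtracted, no filter, a trend and robust prior, array weights, all 75 arrays or separate times, each count of called and class genes by set, both directions together, stayed within 1.5 times. By direction, cyclic loess gave 518 higher and 367 lower germinal-centre-only genes at 6 h, in place of 381 and 520, and 323 and 334 at 24 h, in place of 246 and 461. It gave 23 activated-only higher genes at 6 h in place of 43. The replicate block gave 5157 called genes at 6 h and 6962 at 24 h, 55, 893 and 31 activated-only, germinal-centre-only and opposite genes at 6 h and 55, 704 and 35 at 24 h, and 4129 changes between the times, and it changed no call of the 4 genes. The stricter filter, which tests fewer genes, gave 39 activated-only genes at 6 h, and 23 activated-only and 465 germinal-centre-only genes at 24 h. The RNA quality covariates gave 111, 86 and 9 genes in the classes at 6 h, 54 germinal-centre-only and 0 opposite at 24 h, and 3584 set differences called at 24 h, with larger standard errors. Lines as replicates gave 0, 0 and 1 calls for 6 h, 24 h and the change. Stricter rules by construction gave fewer genes: 149 and 265 with 2-fold, 19 and 21 opposite genes with adjusted p under 0.01, and 3, 122 and 15 class genes at 6 h and 10, 169 and 14 at 24 h with a rule of size (0.5 in each responding line, under 0.25 in the others, and 0.25 in each line of opposite genes). Leaving out a line loosens the class rule by construction. At 6 h the activated-only genes numbered 298 without HBL1, 238 without U2932 and 103 without DHL4, the germinal-centre-only 1353 without U2932 and 1492 without DHL6, and the opposite 118 without HBL1, 157 without U2932 and 64 without DHL6. Activated-only genes at 24 h numbered 151, 219, 125, 96 and 137 without HBL1, U2932, DHL4, DHL6 and LY7, and the opposite 129, 197, 71, 68 and 70. The germinal-centre-only at 24 h numbered 1434, 1169 and 1516 without HBL1, U2932 and LY7. The change between the times was called for 2515 genes without HBL1 (cause not tested). Leaving out single arrays gave 4943 to 5211 called genes at 6 h and 6697 to 7054 at 24 h, 41 to 69 and 44 to 69 activated-only, 805 to 1023 and 631 to 793 germinal-centre-only, and 27 to 35 and 30 to 39 opposite at 6 h and 24 h, and kept the calls of the 4 genes. The middle GAPDH set difference was -0.07 at 6 h and -0.01 at 24 h with cyclic loess, and the 5-prime 28S one -0.29 and -0.08 without LY7. Why these signs turned was not tested.

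With cyclic loess, 256 of the 461 germinal-centre-only lower genes at 24 h stayed in their class, and 19 of the 43 activated-only higher genes at 6 h. All 22 opposite genes with the activated lines lower at 6 h did. The positive share at 6 h was 42.5% in place of 54.4%.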
